A study of Ovis aries with 20 samples.

Results

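The most abundant transcripts common to the jejunum and the ileum of pregnant ewes were described by their share of all measured expression and by their spread within each group. Members were chosen by their measured levels, as gene IDs listed in the tables of both segments that met 3 conditions. Their mean over all 20 libraries was at least 500 FPKM, the number of fragments of a gene relative to its length and to the depth of its library. Under normal feeding, their mean ileal level plus 1 FPKM was above 0.5 and below 2 times their mean jejunal level plus 1 FPKM. In each segment, their median under restricted feeding and their median under normal feeding, both plus 1 FPKM, lay within a factor of 1.5 of each other. Of the 17683 IDs listed in both segments, 132 reached this mean and 109 met all conditions. The other 23 lay outside a ratio limit, 12 of them the limit between segments, 14 the feeding limit in the jejunum and 14 that in the ileum.

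The animals were wild-type Hu sheep ewes, sampled on day 115 of gestation. They had been fed normally (CON) or had restricted feed (TR), and RNA was taken from jejunum (J) and ileum (I), consecutive stretches of the small intestine of which the ileum is the end. The 4 groups, J-CON, J-TR, I-CON and I-TR, held 5 libraries each. The labels give no measure of the restriction. They state neither the number of ewes nor whether equal replicate numbers mark 1 animal, so the spread below is that between samples, which may in part be technical.

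In most mammalian tissues a small number of genes supplies a large part of the messenger RNA. They commonly include genes for ribosomal proteins, the cytoskeleton and energy metabolism, and in the small intestine also genes that absorptive cells use for digestion and transport. Because FPKM is a relative unit, a higher level of such genes in a library can lower the values of the others. The deposited tables do not pair their IDs with gene names, and 0 of 18426 IDs matched the reference gene table, so no name, role, cell type or sequence is given for any member. The tissue labels could likewise not be checked against marker genes. In whole tissue, fewer cells of a type and less RNA per cell cannot be told apart.

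Some libraries stood apart before any comparison. In the libraries numbered 2 under restricted feeding, 1194 of 13279 tested genes lay below and 1284 above all other 18 libraries in both segments. The corresponding counts for the other 9 numbers reached at most 313 and 199. Of the 109 members, 2 lay below and 8 above all other 18 libraries in this pair. Summed FPKM ran from 427169 to 518472 per library, with the highest sum in I-TR 2, and genes at 1 FPKM or more numbered 12250 to 12965. The number of sequenced fragments is unknown.

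The members covered a wide range of levels. The most abundant averaged 9671 FPKM over the 20 libraries, the second 4373 FPKM and the last 503.5 FPKM, with a median of 939 FPKM. Of the 109, 47 averaged at least 1000 FPKM and 10 at least 2000 FPKM. The 10 highest supplied 26.9% of the members' summed level, and the 30 highest together passed 50% of it. These levels, and the ratios that follow, chose the members and are given as a description. The ratio of ileum to jejunum under normal feeding had a median of 1.04 and ran from 0.639 to 1.86, with 94 members within 1.2-fold and 5 above 1.5. The ratio of restricted to normal feeding had a median of 1.07 in the jejunum, from 0.725 to 1.45, and of 0.969 in the ileum, from 0.669 to 1.42. Just outside the level limit lay a gene at 489 FPKM. Just outside the lower feeding limit lay a ratio of 0.547 in the jejunum and one of 0.654 in the ileum, and the lower segment limit had a ratio of 0.301 beyond it. At the upper feeding limit in the jejunum, a ratio of 1.5 after rounding was left out.

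A mean of 500 FPKM did not mean this level in each library. In 66 of the 109 members every library was at 500 FPKM or more, and the lowest value of any member in any library was 12.2 FPKM. A library held between 81 (I-TR 4) and 108 (J-TR 5 and I-TR 5) members at this level. The highest library of a member exceeded its lowest by a median of 2.36-fold. This range was under 2-fold in 24 members and over 4-fold in 9, and it exceeded 10-fold in 3. The order of the members by level was largely kept from library to library. Spearman's rho across the 109 members had a median of 0.861 over the 190 pairs of libraries, and the lowest pair, I-CON 4 and I-TR 2, stood at 0.604. These are correlations across genes, which are not independent replicates.

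**Figure D1:**
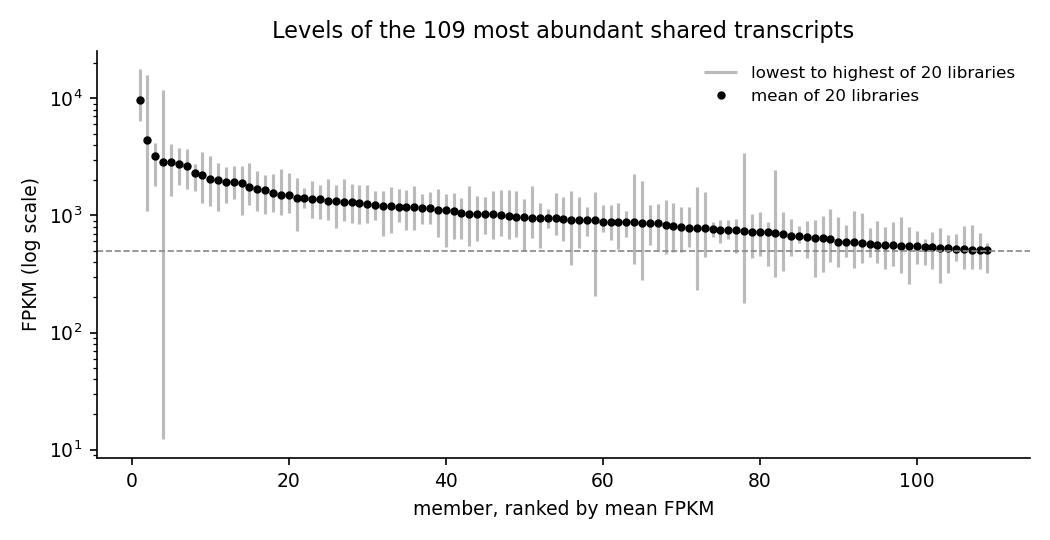
FPKM on a log axis for the 109 members, ordered by their mean over 20 libraries. Points are means, grey lines run from the lowest to the highest library and the dashed line marks 500 FPKM. Most lines are short, and the longest belongs to the member ranked 4, which runs from 12.2 to 11771 FPKM.

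The 109 members, 0.616% of the IDs listed in both segments, took 22.1% to 35.2% of a library's summed FPKM. Their share in the normally fed jejunum was 22.2%, 26.0%, 27.7%, 27.0% and 29.1% in libraries 1 to 5, a mean of 26.4% ± 2.62 (SD, n = 5). Library 1 was the low one, and the other 4 lay within a few points of each other. The restricted jejunum had shares of 27.3%, 32.0%, 26.6%, 25.4% and 32.6%, a mean of 28.8% ± 3.28 (SD, n = 5). Libraries 2 and 5 were higher than the other 3 there. The normally fed ileum had shares of 29.9%, 27.4%, 30.3%, 25.3% and 30.1%, a mean of 28.6% ± 2.21 (SD, n = 5). The restricted ileum had shares of 28.2%, 35.2%, 27.4%, 22.1% and 32.3%, a mean of 29.0% ± 5.01 (SD, n = 5). It held both the highest and the lowest library of the series. Without library 2, the mean was 28.0% ± 3.16 in the restricted jejunum and 27.5% ± 4.20 in the restricted ileum (SD, n = 4). The 4 groups overlapped, and since the rule limits how far group levels can differ, no test was made.

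**Figure D2:**
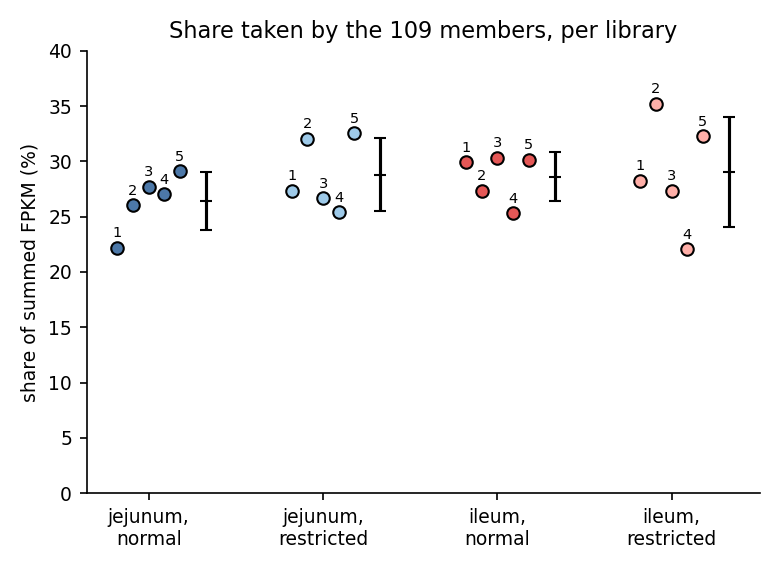
Share of summed FPKM (%) taken by the 109 members, 1 point per library with its replicate number. Bars are the mean ± SD of 5 libraries. The group means lie between 26.4% and 29.0%, and the widest range, from 22.1% to 35.2%, is that of the restricted ileum.

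The libraries of restricted feeding stood in nearly the same order of share in both segments. Numbers 4, 3 and 1 stood in this rising order in the jejunum and in the ileum, and numbers 2 and 5 were the highest in both. Under normal feeding the order differed between the segments, with number 1 the lowest of the jejunum and number 4 the lowest of the ileum. The summed FPKM of all other genes varied less than that of the members. In the restricted ileum the members summed to 137123 ± 33378 FPKM and all other genes to 330834 ± 12691 FPKM (SD, n = 5), coefficients of variation of 24.3% and 3.84%. These coefficients were, in the normally fed jejunum, 10.8% and 2.89%, in the restricted jejunum 15.8% and 1.07%, and in the normally fed ileum 10.3% and 1.92%. Far fewer genes enter the members' sum, so the coefficients are a description and not a comparison of like sets. The 4 libraries with the highest member share, I-TR 2, J-TR 5, I-TR 5 and J-TR 2, were also the 4 with the highest summed FPKM.

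The spread of each member was then described by its coefficient of variation (CV), the SD over the 5 libraries of a group divided by their mean. The median CV over the 109 members was 13.04% in the normally fed jejunum, 17.3% in the restricted jejunum and 16.03% in the normally fed ileum. It was 29.8% in the restricted ileum, the widest of the 4 groups. The CV was under 20% for 96 members in J-CON, 76 in J-TR, 87 in I-CON and 19 in I-TR. Over all 13279 tested genes the median CV was 15.0%, 23.3%, 18.8% and 24.98% in these groups. The restricted ileum was the widest of the 4 groups for 90 of the 109 members and for 43.1% of all tested genes. Between the ileal groups, 102 members were wider under restricted feeding, against 72.0% of all tested genes. Between the jejunal groups, 89 members were, against 75.9%. These counts are descriptions, since members share their libraries and are not replicates. With values rescaled to equal totals the rule found 111 members. Their median CV was then 12.4% in J-CON, 14.5% in J-TR, 13.9% in I-CON and 24.3% in I-TR.

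Single libraries carried much of this spread in the normally fed groups. Without J-CON 1 the median CV of the normally fed jejunum was 5.51% in place of 13.04%. Without I-CON 4 that of the normally fed ileum was 11.2% in place of 16.03%. Without I-TR 2 the restricted ileum stood at 24.0%, and without I-TR 4 at 23.7%, still above the other 3 groups. The restricted jejunum rose from 17.3% to 18.9% without J-TR 2. It fell to 15% without J-TR 4 and to 14.3% without J-TR 5.

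Spread was compared with that of less abundant genes that met the same ratio limits. The 421 such genes from 100 to 500 FPKM had median CVs of 10.99% in J-CON, 18.7% in J-TR, 16.2% in I-CON and 22.7% in I-TR. The 5316 genes from 10 to 100 FPKM had 11.2%, 17.6%, 14.4% and 19.4%. The medians of the members lay above both classes in J-CON, below both in J-TR and between them in I-CON. They lay above both in I-TR, where the members' lower quartile was 24.0%. In the class from 1 to 10 FPKM the median CV in I-TR was 25.5%. The 23 genes of 500 FPKM or more outside a ratio limit had median CVs from 44.4% in J-CON to 85.0% in I-TR. The ratio limits themselves select against wide genes, so no test was made of these differences.

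**Figure D3:**
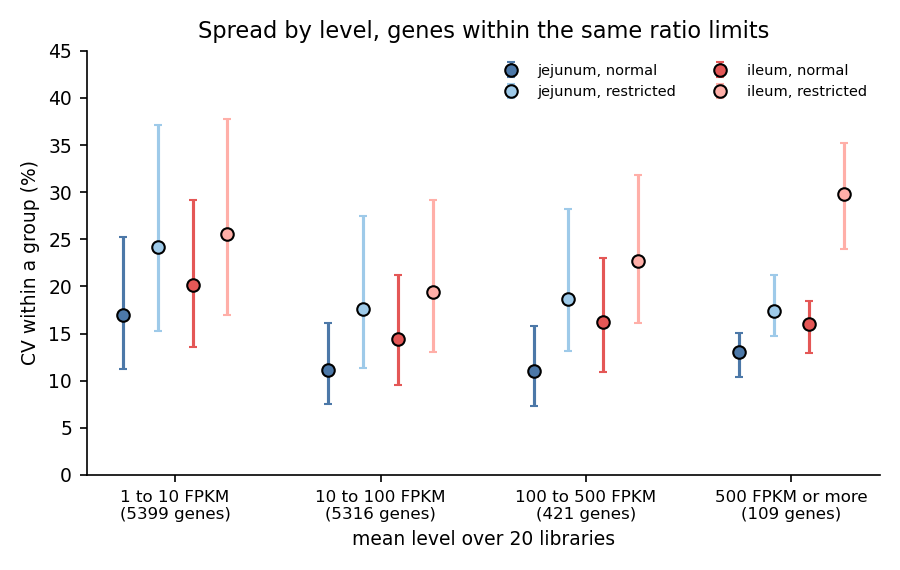
CV within a group (%) by level for genes within the same ratio limits, with the members in the class of 500 FPKM or more. Points are medians over genes and bars run from the lower to the upper quartile. The restricted ileum is the highest group in each class, and at 29.8% it is furthest from the others among the members.

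Within a library most members deviated to the same side. Each value was set against its group mean on the log2 scale, and the median deviation over the 109 members was taken as the common shift of a library. In I-TR 2 this shift was 0.514 and 90 members lay above their group mean. In I-TR 4 it was -0.50 and 16 did. The same medians over all tested genes were 0.031 and -0.053. In the restricted jejunum, library 5 had a shift of 0.289 with 99 members above the mean, and library 4 one of -0.287 with 14. Library 1 of the normally fed jejunum had a shift of -0.311, with 12 members above the mean, and was the lowest of its group for 91 of 109 members. Library 4 of the normally fed ileum had a shift of -0.30, and 17 members lay above. The common shift was thus larger than the median shift of all genes in the libraries at either end of each group.

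**Figure D4:**
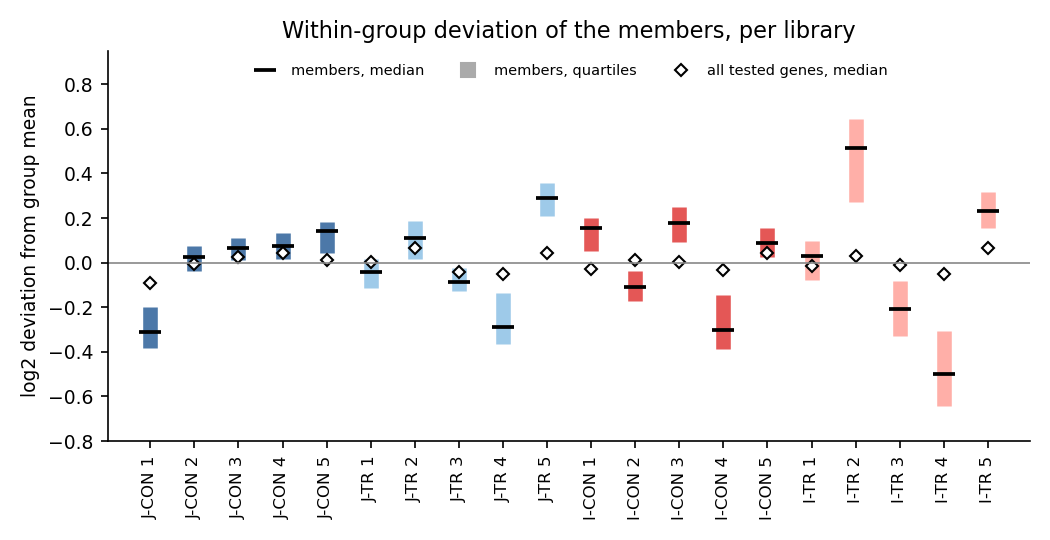
Log2 deviation from the group mean in each library. Black marks are medians over the 109 members, coloured bars their quartiles and diamonds the median of 13279 tested genes. The whole quartile bar lies on the side of 0 that the median is on in every library except J-CON 2, J-TR 1 and I-TR 1.

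The degree to which members shared this shift was counted per member. A median member lay on the side of the common shift in 18 of 20 libraries, and 80 of the 109 did so in at least 16. Of all tested genes, 18.2% did. Members are part of this shift, so their count is a description. Subtracting the common shift reduced the median within-group SD of log2 FPKM from 0.447 to 0.182 in the restricted ileum and from 0.202 to 0.0749 in the normally fed jejunum. The restricted jejunum went from 0.254 to 0.117 and the normally fed ileum from 0.238 to 0.109. Between 84 and 89 of the 109 members became narrower in each group. When each member was expressed as a share of the members' own sum, the median CV was 6.17% in J-CON, 9.82% in J-TR, 8.85% in I-CON and 13.4% in I-TR, and the order of the groups was kept.

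A small number of members did not follow. On the side of the common shift in 8 or fewer libraries were 9 members, which supplied 12.1% of the members' sum. The most abundant of all members, gene12298, was among them, at 7 of 20 libraries. The levels of gene12298 in the normally fed jejunum were 8010, 7068, 7249, 6809 and 7450 FPKM in libraries 1 to 5. It was thus highest in library 1, where most members were lowest. Restricted jejunal libraries held gene12298 at 7793, 6980, 6364, 11864 and 9587 FPKM. Normally fed ileal libraries held it at 8542, 10746, 8399, 12812 and 9283 FPKM, highest in library 4, which had the lowest common shift there. In the restricted ileum gene12298 stood at 13075, 7963, 15277, 10450 and 17706 FPKM, lowest in library 2, which had the highest common shift. It took 1.42% to 3.66% of summed FPKM, and it ranked from 1 to 4 among all genes in each library. All normally fed ileal libraries were above all normally fed jejunal ones for this gene, while the restricted groups overlapped.

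The second member by level, gene5598, was among the widest. The levels of gene5598 in the normally fed jejunum were 1104, 2213, 3664, 1674 and 6117 FPKM. In the restricted jejunum it stood at 1967, 15709, 1092, 1214 and 2220 FPKM, so that library 2 was far above the other 4 and gene5598 was the most abundant gene of that library. Normally fed ileal libraries held gene5598 at 6186, 3249, 6102, 2787 and 6409 FPKM, and restricted ileal ones at 4141, 11437, 1728, 2008 and 6436 FPKM. Library 2 was again the highest. The CV of gene5598 in the restricted jejunum was 142% with library 2 and 34.2% without it, and in the restricted ileum 77.5% and 61.2%.

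The widest member by median CV was gene6592, ranked 4. In the restricted jejunum gene6592 stood at 1576, 7010, 14.0, 585 and 1946 FPKM, and in the restricted ileum at 3113, 11771, 12.2, 3110 and 1562 FPKM. In library 3 of both segments it was thus far below the other libraries, and in library 2 of both it was highest. The levels of gene6592 in the normally fed jejunum were 1174, 1296, 2466, 985 and 3269 FPKM, and in the normally fed ileum 5408, 1825, 4365, 967 and 4541 FPKM. The lowest of the other 18 libraries exceeded the higher of the libraries numbered 3 by 41.8-fold. No other of the 109 members had both of these libraries below all other 18. Over all 20 libraries the level of gene6592 spanned 961-fold, and over the other 18 it spanned 20.1-fold. Without library 3, its CV was 104% in the restricted jejunum and 95.02% in the restricted ileum, against 125% and 117% with it.

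The narrowest member by median CV was gene5802, ranked 85 at a mean of 667 FPKM. The levels of gene5802 in the normally fed jejunum were 577, 688, 633, 580 and 644 FPKM, and in the restricted jejunum 631, 686, 672, 672 and 630 FPKM. Normally fed ileal libraries held it at 698, 639, 690, 703 and 626 FPKM, and restricted ileal ones at 724, 612, 760, 819 and 652 FPKM. All 4 groups overlapped, and the highest library exceeded the lowest by 1.42-fold. Its CV was 7.47% in J-CON, 3.94% in J-TR, 5.37% in I-CON and 11.6% in I-TR.

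**Figure D5:**
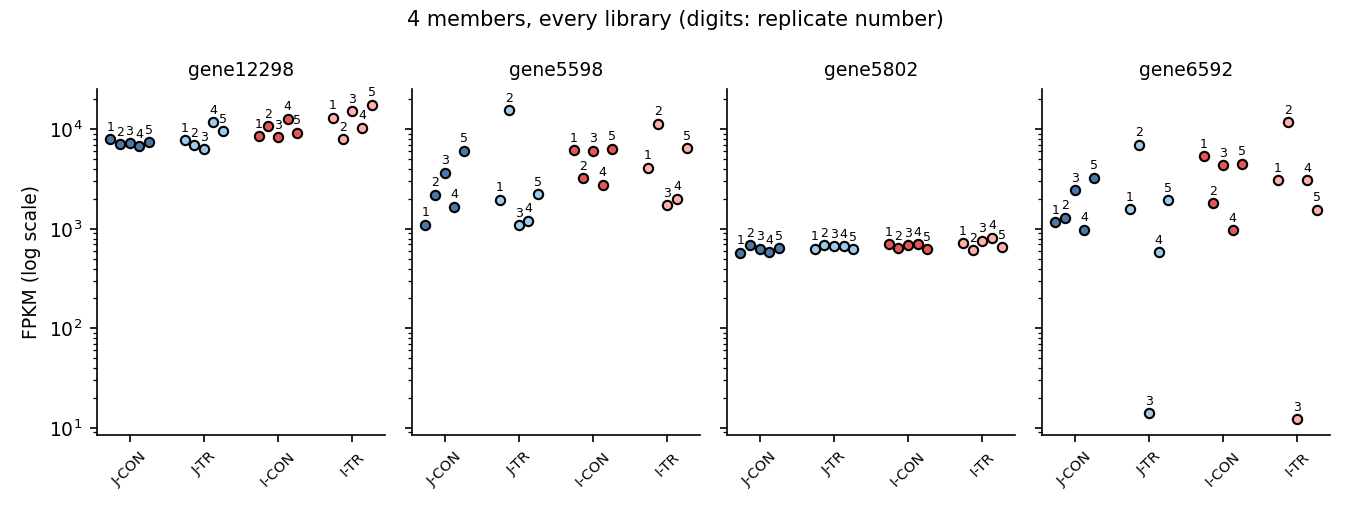
FPKM on a log axis of the 2 most abundant members (gene12298 and gene5598), the narrowest (gene5802) and the widest (gene6592), 1 point per library with its replicate number. Library 3 of the restricted groups lies at 14.0 and 12.2 FPKM for gene6592, and gene5802 stays between 577 and 819 FPKM.

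A further 9 members, besides gene6592, had a CV over 50% in at least 1 group, and these 10 supplied 10.6% of the members' sum. By group, 5 members passed 50% in J-CON, 5 in J-TR, 4 in I-CON and 5 in I-TR. Without library 2, 2 did so in each restricted group.

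The feeding and segment contrasts, which the rule used, were fitted across all genes with limma on log2(FPKM + 1), and counts of members in them carry no evidence. All 109 members passed the filter on low values in each fit. Between feeding groups in the jejunum, 0 members passed at an adjusted p under 0.05 in limma, as did 0.545% of 12652 genes, and 8 members had an unadjusted p under 0.05, against 8.44% of all genes. Groups did not overlap for 2 members, against 2.66% of all genes, and the 95% interval of the difference lay within 2-fold for 102 members, against 88.3%. Of the members, 92 had a log2 difference above 0, against 47.6% of all genes, and the median was 0.18 against -0.01. This median fell to 0.12 with values rescaled to equal totals and to 0.03 after quantile normalization, and it was 0.15 without library 2. With 1 library left out it ran from 0.09 (without J-CON 1) to 0.25 (without J-TR 4). In the ileum 0 members passed in limma, as did 0.0156% of 12830 genes, and 1 had an unadjusted p under 0.05, against 9.08% of all genes. Groups overlapped for all members, and did not for 2.39% of all genes. The 95% interval lay within 2-fold for 103 members, against 85.6% of all genes. The median log2 difference was 0.02 with 58 members above 0, and it was -0.02 with equal totals, -0.01 after quantile normalization and -0.10 without library 2. Without I-CON 4 this median was -0.05, without I-TR 5 it was -0.04 and without I-TR 4 it was 0.13. Its direction therefore depended on the scaling and on single libraries.

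Between segments under normal feeding, 2 members passed in limma, as did 6.45% of 12844 genes, and 11 had an unadjusted p under 0.05, against 20.7%. Groups did not overlap for 6 members, against 8.82% of all genes, and the 95% interval lay within 2-fold for 101 members, against 88.8%. The member higher in the ileum was gene6355, at 806, 729, 816, 784 and 623 FPKM in the jejunum and 1110, 1474, 1119, 1602 and 1059 FPKM in the ileum. Every ileal library lay above every jejunal one. The member higher in the jejunum was gene1618, at 760, 749, 547, 578 and 596 FPKM in the jejunum and 518, 408, 478, 393 and 357 FPKM in the ileum. Every jejunal library lay above every ileal one. The call of gene1618 was lost without J-CON 1, 2 or 5 and without I-CON 2, 4 or 5, at limma adjusted p from 0.0635 to 0.0935. It was also lost with no filter (adjusted p = 0.0514) and in 1 fit of all 20 libraries (adjusted p = 0.106), and that of gene6355 after quantile normalization (adjusted p = 0.0596). With 1 library left out, 1 to 3 members passed.

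The segments under restricted feeding are the pairwise contrast that the rule did not name. The levels of both groups entered it, however, and its limits on the other 3 contrasts limit this one indirectly. In limma 0 of 109 members passed, as did 0% of 12640 genes, and the smallest adjusted p of a member was 0.167. At an unadjusted p under 0.05 there were 6 members, against 11.1% of all genes. The median log2 difference of ileum minus jejunum was -0.09, with 31 members above 0, against 0.05 and 60.0% of all genes. After quantile normalization this median of the members was -0.02. With 1 library left out it ran from -0.22 (without I-TR 2) to 0.02 (without I-TR 4), so its direction depended on single libraries. The 95% interval of the difference lay within 2-fold for 92 of the 109 members and for 82.4% of all genes, and for the other 17 members it reached beyond 2-fold. Groups did not overlap for 2 members, against 2.33% of all genes.

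Equal numbers were treated as pairs under restricted feeding, although the labels state no pairing. With the number as a block 0 members passed in limma, as did 0% of 12640 genes. At an unadjusted p under 0.05 there were then 12 members, against 20.7% of all genes. Without both libraries numbered 2, 1 member passed in limma, as did 1.96% of 12433 genes. With both omitted and the number as a block, 8 members passed, 6 of them higher in the ileum, as did 6.56% of 12433 genes. In 1 fit of all 20 libraries 2 members passed, as did 2.31% of 13279 genes.

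The members that parted the segments under normal feeding were followed in the restricted libraries. Restricted jejunal libraries held gene6355 at 773, 955, 756, 779 and 778 FPKM and restricted ileal ones at 1310, 843, 1098, 1621 and 1427 FPKM. The log2 difference of ileum minus jejunum was 0.61 ± 0.195 (SE, limma adjusted p = 0.279), with an overlap made by the libraries numbered 2. Outside this pair, every ileal library exceeded every jejunal one. Of the 5 pairs of equal number, 4 were higher in the ileum, and with the number as a block the limma adjusted p was 0.158. In the restricted jejunum gene1618 stood at 862, 459, 1092, 950 and 730 FPKM, and in the restricted ileum at 504, 443, 407, 493 and 561 FPKM. Its log2 difference was -0.71 ± 0.229 (SE, limma adjusted p = 0.281). Jejunal library 2 was the only jejunal library within the ileal range. All 5 pairs of equal number were lower in the ileum, and with the number as a block the limma adjusted p was 0.133. Without both libraries numbered 2, the limma adjusted p was 0.0589 for gene6355 and 0.0536 for gene1618, and with the block as well 0.0272 and 0.0459. The omitted pair holds the libraries that made both overlaps, so these lower values are no separate support. In 1 fit of all 20 libraries the limma adjusted p was 0.0606 and 0.0532.

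The difference between the feeding effects of both segments was fitted as an interaction in all 20 libraries. This fit took the libraries as independent and did not model pairs of equal number. The rule limits the feeding ratio of medians in each segment, and so limits this difference of mean log2 values indirectly. The values of the members are therefore a description. In limma 0 of 109 members passed, as did 0% of 13279 genes, and 1 member had an unadjusted p under 0.05, against 1.97% of all genes. The median interaction estimate of the members was -0.15 on the log2 scale, with 15 above 0, against -0.01 and 47.0% of all genes. After quantile normalization the median was -0.05, and without both libraries numbered 2 it was -0.24. The 95% interval lay within 2-fold for 94 members and for 79.6% of all genes.

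The lowest library of a member often had the same number in both segments under restricted feeding. This held for 74 of 109 members and for 38.7% of all tested genes. Number 4 was the lowest jejunal library for 75 members and the lowest ileal library for 79. Members shifted together within a library, so these counts are not separate agreements. The highest library had the same number for 19 members, against 42.2% of all tested genes: jejunal library 5 was highest for 80 members and ileal library 2 for 80. Under normal feeding the lowest library had the same number for 13 members and the highest for 26, against 26.3% and 25.6% of all tested genes.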

How the data were processed

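Each library has its own table of FPKM values by gene ID, as deposited by the authors, per the file headers. Libraries were made from Trizol-extracted total RNA with an NEBNext kit, per the labels' protocols. Aligner, counting tool, build and annotation: not given in the sources used here. The jejunal tables listed 18058 IDs and the ileal ones 18051. The sample titles gave the groups and the replicate numbers, and the treatment label of each sample gives the same feeding group. The separate treatment protocol names restricted feeding for all 20 samples, those labelled as normally fed included. The members and all choices were made with earlier results of these data known. Printed IDs are the 2 most abundant members, the narrowest and the widest by median CV, and the members that passed a test. Marker and pathway lists could not be applied, since no ID matched a name.

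Means, CVs and shares were computed with Python 3.11.15 and pandas 2.3.3. Fits used limma 3.58.1 in R 4.3.3 with a mean-variance trend on log2(FPKM + 1), for genes that reached 1 FPKM in 5 or more of the libraries fitted. Benjamini-Hochberg adjustment ran over every gene fitted. The fits were tested on simulated data. Fold changes on this scale understate those of low genes. Pairing was checked by correlating, over 13279 genes, deviations from group means between libraries of equal number. These correlations ran from 0.168 to 0.637 (median 0.527) under restricted feeding, all over the bound of 0.1. Under normal feeding they ran from 0.0219 to 0.50 (median 0.3045). Between unequal numbers they ran from -0.59 to 0.4445 (median -0.0406) under restricted feeding. The range for unequal numbers under normal feeding was -0.483 to 0.401 (median -0.0745). Passing 0.1 therefore does not by itself mark a pair. The labels do not state a pairing. Alternatives varied the rule, scaling, filter, pseudocount, replicate block and libraries.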

Additional observations from a re-analysis of the deposited data

Results flagged for a closer look

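In 4 of 32 sets of 5 libraries checked, the library at one end was far from the others. Chance gives about 1 in 20 of independent sets not chosen by their values. That rate does not apply here. The members were chosen by their levels, the genes checked among them by level, spread or limma result, and the sets share their libraries. All 4 concern the libraries numbered 2 under restricted feeding, at the high end. In J-TR 2, gene5598 stood at 15709 FPKM, gene6592 at 7010 FPKM and gene6355 at 954.5 FPKM. In I-TR 2, gene6592 stood at 11771 FPKM. Over all members and groups, 33 of 436 such sets passed the same bound, 18 of them in the normally fed jejunum.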

How the results depend on the processing

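Applying the rule with 1 library left out gave 103 to 110 members, of which 102 to 109 were among the 109. The number was 165 at a mean of 300 FPKM and 47 at 1000 FPKM. At 300 FPKM the share was 31.1% in J-CON, 33.5% in J-TR, 33.4% in I-CON and 33.7% in I-TR. At 1000 FPKM it was 17.03% in J-CON, 18.7% in J-TR, 18.8% in I-CON and 19% in I-TR. Without J-TR 2 and I-TR 2 the rule found 101 members, 99 of them shared, with shares of 23.0% in J-CON, 24.7% in J-TR, 24.0% in I-CON and 22.5% in I-TR. In I-CON the share was 26.0% with every ratio within 1.5-fold and 30.85% with every ratio within 2-fold. With 1 library of the group left out, the share ran from 25.7% to 27.5% in J-CON, 27.9% to 29.6% in J-TR, 28.2% to 29.4% in I-CON and 27.5% to 30.8% in I-TR. The median CV then ran from 5.51% to 14.7% in J-CON, 14.3% to 19.2% in J-TR, 11.2% to 17.2% in I-CON and 23.7% to 33.4% in I-TR. As a share of the members' sum it was 9.82% in J-TR, 8.85% in I-CON and 13.4% in I-TR, a scaling chosen after seeing the data, as were the rule with 1 library left out and the joint omission with a block.

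Members passing limma stayed at 0 for feeding in either segment and for the interaction in every alternative run. These runs include a replicate block, which here joined equal numbers of differently fed ewes and so is no check of pairing. Between segments under normal feeding the count was 1 with no filter and in 1 fit of all 20 libraries, 2 with the replicate block, and 1 to 3 with 1 library left out. Under restricted feeding it was 2 in 1 fit of all 20 libraries, 1 without both libraries numbered 2, 8 with these omitted and a replicate block, and 0 to 1 with 1 library left out. The cause of these changes was not tested. The difference of gene6355 under normal feeding passed in 17 of 18 alternatives and that of gene1618 in 10 of 18. Over all genes, 69 passed for feeding in the jejunum, 108 with equal totals and 39 with a filter at 5 FPKM. With the block across differently fed ewes 0 passed there, and with 1 library left out 10 to 99. In the ileum 2 passed, 73 in 1 fit of all 20 libraries and 0 to 7 with 1 left out. Between segments under normal feeding 828 passed, 386 in 1 fit of all 20 libraries and 394 to 774 with 1 left out. Under restricted feeding 0 passed, 307 in 1 fit of all 20 libraries and 0 to 129 with 1 left out. Since fragment numbers are unknown, counting error could not be given.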

Other observations

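The low level of gene6592 in both restricted libraries numbered 3 was looked for elsewhere. Of 13279 tested genes, 4 had both of these libraries over 10-fold below all other 18, and gene6592 was the only member among them. The 23 genes of 500 FPKM or more outside a ratio limit took 3.77% to 12.8% of summed FPKM, highest in J-CON 1, where the members' share of 22.2% was the lowest of the jejunum.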
